A study of Mus musculus with 21 samples.

Results

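Mouse embryonic stem cells (ESCs) after 12 h with 2 µM retinoic acid (RA) were compared with the same kind of cells at the start of the time course, to describe the net change and which genes of the naive state were held. Of 21 libraries in the series, 6 entered the comparison, chosen by their titles: 3 of the starting ESCs (ESC_0h) and 3 of the cells given RA (RA_12h). The starting ESCs were wild type and grew on gelatin in serum with the cytokine LIF and 2 inhibitors together called 2i, the MEK inhibitor PD0325901 and the GSK3 inhibitor CHIR99021. Another group of 3 libraries, 12 h without LIF and 2i and without RA (noRA_12h), is given beside them, and the groups at 24 h only as levels. Whether the RA_12h cells still had LIF and 2i is not clear from the labels, and no group stayed in LIF and 2i for 12 h. RA, removal of LIF and 2i, and time in culture can therefore not be told apart in this comparison. The labels do not say whether replicates were separate cultures, and p-values then measure only the spread between these libraries, which may be technical.

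Naive ESCs resemble the cells of the preimplantation epiblast, and a network of transcription factors that includes Nanog, Esrrb, Klf4 and Tfcp2l1 sustains them. In 2i the MEK inhibitor blocks ERK signalling and the GSK3 inhibitor stabilises beta-catenin, while LIF activates STAT3. When these supports are withdrawn, ESCs leave the naive state through a formative state marked by Otx2, Pou3f1 and the de novo DNA methyltransferases. RA enters the nucleus and binds receptors of the RAR family, which sit with RXR partners on direct repeats of a short hexamer. RA then raises its own degrading enzyme Cyp26a1, its receptor Rarb and the early genes of the Hox clusters.

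Promoter sequences are shown for Cyp26a1 and Rarb, because among the genes described here these were the ones whose promoter held the repeat searched and whose level was higher in RA_12h. Each is the 250 bases before the RefSeq start of the gene (GRCm38.p6, the same assembly as mm10), written on the strand of the gene, and the capitals mark both hexamers of the repeat. The Cyp26a1 sequence is chr19:37697558-37697807 on the plus strand, and its repeat lies on the opposite strand. The Rarb sequence is chr14:16575477-16575726 on the minus strand, and its repeat lies on the strand of the gene.
Cyp26a1: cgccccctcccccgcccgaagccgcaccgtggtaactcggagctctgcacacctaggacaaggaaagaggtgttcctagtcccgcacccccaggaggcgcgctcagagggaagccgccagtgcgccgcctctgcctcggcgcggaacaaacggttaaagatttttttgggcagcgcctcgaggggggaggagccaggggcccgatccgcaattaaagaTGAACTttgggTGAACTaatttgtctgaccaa
Rarb: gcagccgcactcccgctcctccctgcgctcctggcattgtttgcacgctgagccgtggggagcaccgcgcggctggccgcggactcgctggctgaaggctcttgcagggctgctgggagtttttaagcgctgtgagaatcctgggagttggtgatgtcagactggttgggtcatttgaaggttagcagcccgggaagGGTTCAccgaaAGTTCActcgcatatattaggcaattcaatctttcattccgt

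The search took any of the hexamers AGGTCA or AGTTCA or GGTTCA or GGGTCA in direct repeat with 5 bases between them, on both strands of a window from 250 bases before to 50 bases after each start. The repeat was in 32 of 32851 promoters (0.0974%) and in 7 of the 13552 promoters of genes tested here (0.0517%). Of the promoters of genes higher by 2-fold or more in RA_12h, 2 of 940 held it (0.213%), and of those lower by 2-fold or more, 0 of 1572. Of 33 promoters that belong to 19 genes of a list of RA targets, 2 held it (6.06%), and of 13 Hoxa and Hoxb promoters, 0. The 2 in the RA list and the 2 of 940 are the same promoters, those of Cyp26a1 and Rarb. These shares are therefore not separate observations. With 2 bases between the hexamers, the repeat was in 88 of all promoters (0.268%), in 14 of those of genes tested (0.103%), in 3 of those of genes higher by 2-fold or more (0.319%), in 4 of those of genes lower by 2-fold or more (0.254%) and in none of those of the RA list. The window is short, and a match is a run of letters and not a measured site.

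Levels are TPM, the length-scaled share of a library's transcripts that a gene takes, and changes are differences of mean log2(TPM + 1) between groups, which are smaller than TPM ratios for low genes. Depth was 2.959 to 3.207 aligned gigabases in ESC_0h and 3.318 to 3.812 in RA_12h. Genes at 1 TPM or more numbered 12384 to 12641 and 12188 to 12268, and genes listed at 0 numbered 14602 to 15055 and 14111 to 14364. The groups did not overlap on any of these, so depth and a change of the cells cannot be told apart for genes listed at 0. Pearson r across genes was 0.991 to 0.993 among the ESC_0h libraries, 0.995 to 0.996 among the RA_12h libraries and 0.917 to 0.937 between the groups. Within groups, 67.2% of the spread lay on one axis, and the genes' loadings on it had r = -0.666 with GC content across genes. ESC_0h libraries sat at -0.812, 10.7 and 28.5 on this axis, RA_12h libraries at -37.1, -41.1 and -33.8, and noRA_12h libraries at 31.8, -43.5 and -13.5. The groups compared did not overlap on it, so for long genes of low GC content a shift on this axis and a change of the cells cannot be told apart. Changes after a correction for GC content and length are given beside genes with wide errors. Markers of ESCs were high in all 6 libraries, with Pou5f1 at 2245 to 3099.9 TPM and Sox2 at 183 to 224 TPM.

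The difference between the groups ran through most of the transcriptome. Of 13948 genes tested with limma, 7767 (55.7%) passed an adjusted p of 0.05, of which 3824 were higher in RA_12h (27.4% of those tested) and 3943 lower (28.3%). By 2-fold or more, 968 genes were higher (6.94%) and 1608 lower (11.5%), and the median change of all genes tested was -0.035. Without LIF and 2i and without RA, 5922 genes (42.5%) passed, of which 3073 genes were higher (22.0%) and 2849 lower (20.4%) than in ESC_0h. Between RA_12h and noRA_12h 2431 genes (17.4%) passed, of which 1428 were higher (10.2%) and 1003 lower (7.19%). In bulk libraries a change in the number of cells that express a gene and a change in the RNA of each cell cannot be told apart. These 3 comparisons share libraries in pairs, so their values are set side by side and nothing is read from their likeness.

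The 3 genes that mark this comparison give its outline. Cyp26a1 (chr19:37697798-37701536 in GRCm38, plus strand), the enzyme that degrades RA, was listed at 0 TPM in all ESC_0h libraries and stood at 122, 121 and 119 TPM in RA_12h. In noRA_12h it stood at 0.461, 0.191 and 0.765 TPM, and since its ESC_0h group is listed at 0 no fold is given. Dusp6 (chr10:99263231-99267489, plus strand), the phosphatase that ERK signalling induces against itself, stood at 3.72, 4.83 and 4.98 TPM in ESC_0h and at 132, 133 and 134 TPM in RA_12h. Its change was 4.61 (SE 0.087, adjusted p 6.61e-13), and noRA_12h lay between at 69.3, 79.1 and 79.9 TPM. Nanog (chr6:122707489-122714633, plus strand), a core factor of the naive network, stood at 507, 549 and 526 TPM in ESC_0h and at 582, 594 and 594 TPM in RA_12h. The groups did not overlap and RA_12h was above, but the change of 0.16 (SE 0.068) missed the threshold with an adjusted p of 0.0575. Nanog passed as higher under 4 other settings, among them the GC and length correction (0.19, adjusted p 0.0486). In noRA_12h Nanog was lower than at the start, at 413, 358 and 437 TPM (-0.39, adjusted p 0.000413).

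**Figure D1:**
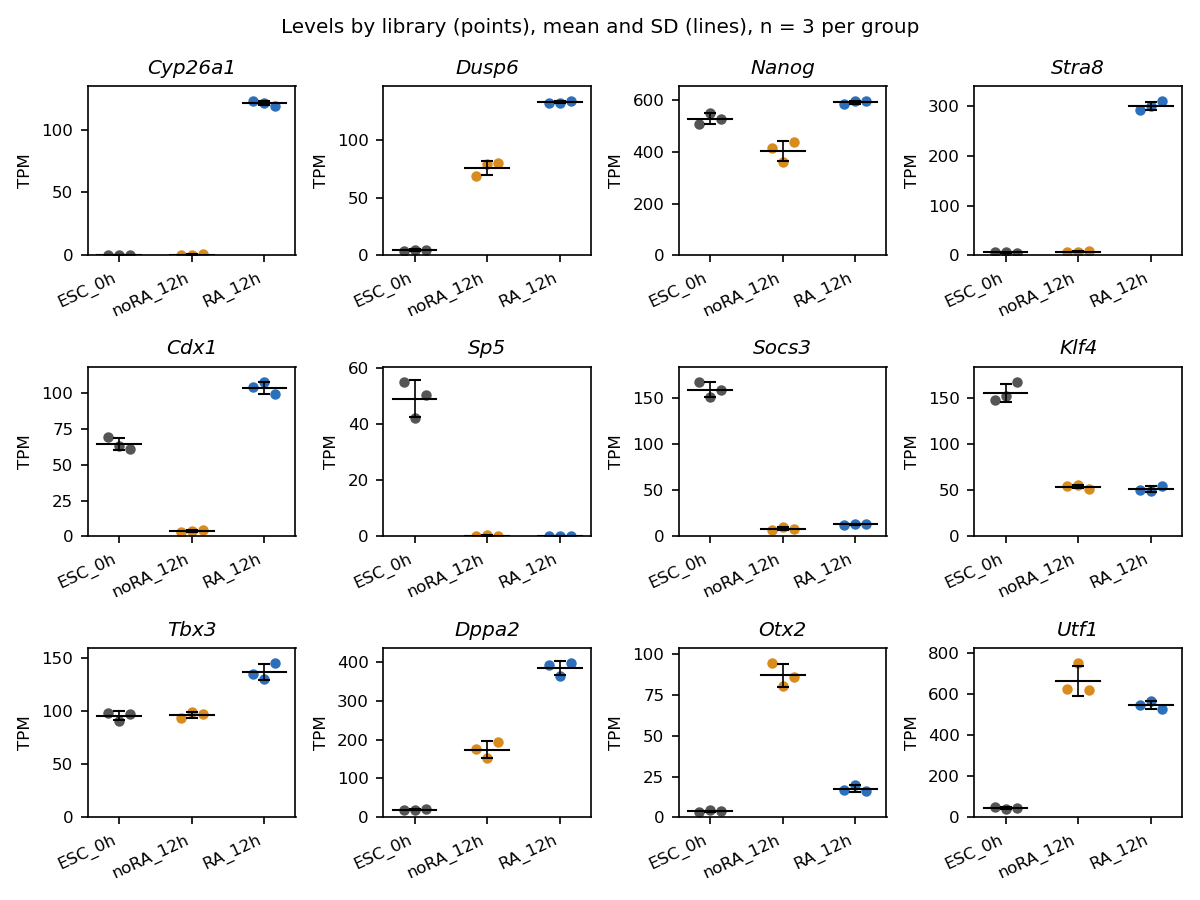
TPM of 12 genes (y axis, linear, own scale per panel) in ESC_0h, noRA_12h and RA_12h (x axis), with 1 point per library, a line at the mean of 3 and whiskers of 1 SD. Cyp26a1 is listed at 0 in ESC_0h and sits at 119 to 122 TPM in RA_12h, while Nanog sits at 582 to 594 TPM in RA_12h, above the 507 to 549 TPM of ESC_0h.

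Naive genes had moved in both directions at 12 h. A list of 30 naive genes was tested in full, and 13 were higher, 14 lower and 3 not past the threshold, with a median change of -0.21. The median of all genes was -0.035, with 27.4% of them higher and 28.3% lower. In noRA_12h 11 of the 30 were higher and 13 lower than in ESC_0h, beside 22.0% and 20.4% of all genes. The mean of log2(TPM + 1) over the 30 genes was 6.59, 6.63 and 6.71 in the ESC_0h libraries and 6.60, 6.60 and 6.63 in the RA_12h libraries, so the groups overlapped. It was 6.86, 6.65 and 6.75 in noRA_12h, and by 24 h it was 5.92, 6.06 and 5.83 with RA and 6.20, 6.17 and 6.18 without RA. By class, 13 genes were raised, 7 were lowered by 2-fold or more, 7 were lowered by less, and 2, Nanog and Pecam1, were not past the threshold with a 95% interval inside 2-fold. The gene left over, Tet2, had an interval too wide to place.

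Among the naive genes that were raised, Tbx3 and Klf5 encode transcription factors of the core network. Tbx3 stood at 98.3, 91.0 and 97.3 TPM in ESC_0h, 93.5, 98.6 and 97.0 TPM in noRA_12h and 135, 130.1 and 145 TPM in RA_12h, which was above both other groups with no overlap. Its change from the start was 0.51 (SE 0.064, adjusted p 2.14e-05), against 0.013 (adjusted p 0.888) without RA. Klf5 stood at 110.2, 107 and 116 TPM in ESC_0h and 129, 133 and 138 TPM in RA_12h, a small change of 0.26 (SE 0.052, adjusted p 0.000946). Without RA the change of Klf5 was 0.024, not past the threshold. At 24 h the mean of Tbx3 was 102 TPM with RA and 20.3 TPM without it, and that of Klf5 163 and 82.5 TPM.

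Dppa2 and Dppa4, partner proteins that bind DNA at early embryonic genes, had large changes. Dppa2 stood at 18.9, 18.3 and 21.0 TPM in ESC_0h, 175, 152 and 195 TPM in noRA_12h and 393, 365 and 396 TPM in RA_12h, in that order with no overlap. Its change was 4.24 (SE 0.12, adjusted p 1.02e-11) from the start and 1.15 (adjusted p 1.25e-05) from noRA_12h. Dppa4 stood at 65.5, 71.6 and 68.7 TPM in ESC_0h and 228, 245 and 235 TPM in RA_12h, a change of 1.77 (SE 0.098). Bmp4, a secreted ligand, rose from 2.67, 3.61 and 3.66 TPM to 35.4, 33.4 and 34.8 TPM, and Manba, a lysosomal mannosidase, from 42.4, 45.9 and 46.8 TPM to 261, 264 and 259 TPM. Their changes were 3.05 and 2.51 (SE 0.11 and 0.068). In noRA_12h Dppa4, Bmp4 and Manba were also above the start, by 1.58, 2.99 and 2.24. Against noRA_12h, Dppa4 and Bmp4 did not differ past the threshold in RA_12h, and Manba was higher by 0.27. Nr0b1, a nuclear receptor without a DNA-binding domain, stood at 32.1, 34.9 and 36.3 TPM in ESC_0h and 134, 139 and 138 TPM in RA_12h (1.96, SE 0.096), and higher still at 164, 212 and 200.4 TPM in noRA_12h.

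Other raised members changed by less than 2-fold. Zfp42, also called Rex1, a zinc finger protein used as a naive reporter, stood at 286, 349 and 360.2 TPM in ESC_0h and 436, 441 and 491 TPM in RA_12h (0.46, SE 0.12, adjusted p 0.00573). The imprinting factor Zfp57 changed by 0.93 (SE 0.071), the elongation factor gene Tcea3 by 0.61 (SE 0.076) and the homeobox gene Gbx2 by 0.44 (SE 0.10). Dppa5a changed by 0.23 (SE 0.054) from a mean of 3848 TPM, and its call was lost under the GC and length correction (0.057, adjusted p 0.362). The cell cycle factor Mybl2 changed by 0.22 (SE 0.077, adjusted p 0.0293), and its call was lost under both other scalings of the libraries, without a variance trend, and when any library but ESC_0h replicate 1 was left out. In noRA_12h the changes from the start were 0.59 for Zfp42, 1.07 for Zfp57, 1.09 for Tcea3 and 0.46 for Gbx2. They were 0.47 for Mybl2 and 0.11 for Dppa5a, the latter not past the threshold. Tcea3 and Mybl2 were lower in RA_12h than in noRA_12h (-0.48 and -0.25).

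Pecam1, a cell adhesion protein on naive cells, was the member nearest to its starting level. It stood at 114, 116 and 118 TPM in ESC_0h and 117, 115 and 118 TPM in RA_12h, overlapping ranges with a change of 0.0064 (SE 0.06, 95% interval -0.12 to 0.14). In noRA_12h it was at 87.9, 81.9 and 90.8 TPM, below every library of both other groups (-0.42 from the start, adjusted p 8.16e-05). For Nanog the 95% interval of the change was 0.016 to 0.31. At 24 h both were lower on average, Nanog at 246 TPM with RA and 164 TPM without, Pecam1 at 99.8 and 70.6 TPM.

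The members lowered by less than 2-fold on the log2(TPM + 1) scale were mostly transcription factors. The edge of this class depends on the scale. Mean TPM of Nr5a2 in RA_12h was 49.3% of that in ESC_0h, and with a pseudocount of 0.1 the class of 2-fold or more held 8 genes. Esrrb, an orphan nuclear receptor of the core network, stood at 670.3, 550.0 and 585 TPM in ESC_0h and 310.1, 307 and 302 TPM in RA_12h, a change of -0.97 (SE 0.1, adjusted p 3.46e-06). Klf2 stood at 245, 196 and 217 TPM in ESC_0h and 122, 128 and 124 TPM in RA_12h (-0.80, SE 0.12, adjusted p 0.000105). Prdm14, which restrains FGF signalling and DNA methylation, went from 31.2, 33.2 and 27.0 TPM to 21.0, 21.3 and 23.3 TPM (-0.46, SE 0.10), and its call was lost under quantile normalization (adjusted p 0.0728). For these 3 genes RA_12h and noRA_12h did not differ past the threshold.

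Nr5a2, Tcl1 and Sall1 were also below noRA_12h. Nr5a2, a nuclear receptor, stood at 21.3, 22.5 and 27.0 TPM in ESC_0h, 23.3, 17.8 and 19.2 TPM in noRA_12h and 12.1, 11.1 and 11.7 TPM in RA_12h (-0.73 against noRA_12h, adjusted p 0.00115). Tcl1, an AKT coactivator, stood at 116, 117 and 107, 101, 128 and 109 and 72.7, 74.9 and 74.3 TPM in the same order of groups (-0.59, adjusted p 0.000367). Sall1, a zinc finger factor, stood at 41.3, 38.6 and 43.4 TPM at the start, rose to 62.8, 55.7 and 60.4 TPM in noRA_12h and was at 29.0, 30.8 and 31.5 TPM in RA_12h. Its changes from the start were thus opposite, 0.53 (adjusted p 0.000106) without RA and -0.42 (adjusted p 0.000531) with RA. Jam2, a junctional adhesion molecule, changed by -0.81 (SE 0.14).

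The 7 members lowered by 2-fold or more included STAT3 targets and a subunit of the LIF receptor. Klf4, a target of STAT3, stood at 149, 153 and 167 TPM in ESC_0h and 50.4, 49.4 and 54.6 TPM in RA_12h, a change of -1.58 (SE 0.069, adjusted p 8.27e-10). Tfcp2l1, another STAT3 target, stood at 205, 206 and 229.7 TPM and then 61.8, 60.7 and 62.8 TPM (-1.77, SE 0.096, adjusted p 6.72e-09). In noRA_12h they stood at 54.4, 55.3 and 51.9 and at 63.5, 49.8 and 59.9 TPM, so that the groups after 12 h overlapped. Il6st, the receptor subunit gp130 through which LIF signals, went from 18.7, 20.2 and 22.0 TPM to 8.66, 9.02 and 8.39 TPM (-1.13, SE 0.14).

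Tdh, the threonine dehydrogenase that naive mouse ESCs depend on, stood at 899, 839 and 843 TPM in ESC_0h, 547, 619.5 and 585 TPM in noRA_12h and 355, 362 and 351 TPM in RA_12h. The change from the start was -1.27 (SE 0.081, adjusted p 3.4e-08), and that from noRA_12h -0.71 (adjusted p 3.65e-05). Its mean at 24 h was 46.8 TPM with RA and 236 TPM without. Dppa3, also called Stella, went from 7.52, 8.04 and 9.10 TPM to 2.62, 3.32 and 3.37 TPM (-1.17, SE 0.14). Fbxo15 and Spp1 had wide errors, with changes of -2.21 (SE 0.36) and -2.91 (SE 0.42). After the GC and length correction they were -1.98 and -2.73. Tet2, a 5-methylcytosine dioxygenase, stood at 9.01, 8.95 and 15.9 TPM in ESC_0h and 4.13, 2.41 and 4.17 TPM in RA_12h without overlap, and noRA_12h spanned both at 21.6, 2.58 and 5.71 TPM (-1.41, SE 0.67, adjusted p 0.093, corrected -0.80).

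**Figure D2:**
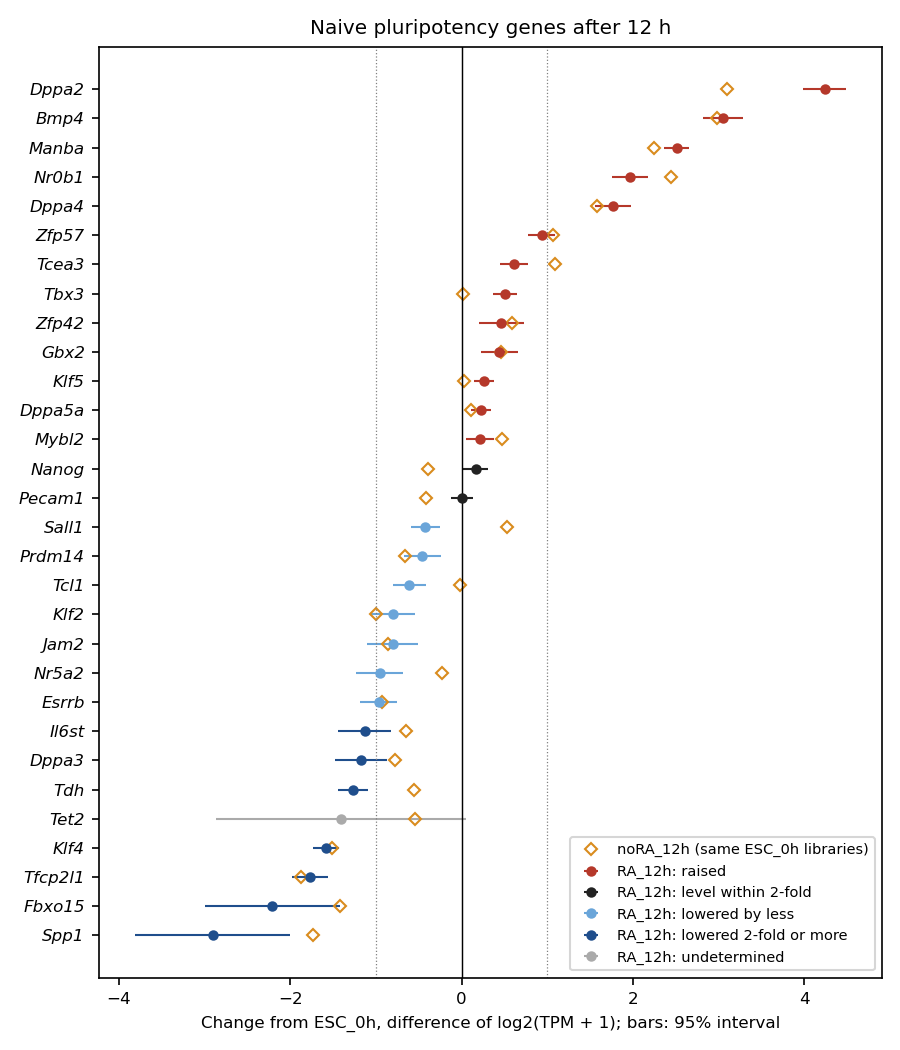
Change in log2(TPM + 1) from ESC_0h (x axis) for the 30 naive genes (y axis), as filled points for RA_12h coloured by class with bars for the 95% interval, and open diamonds for noRA_12h. Dotted lines mark 2-fold changes. Dppa2, Bmp4 and Manba lie far to the right and Spp1 and Fbxo15 far to the left, while Nanog and Pecam1 lie near 0 in RA_12h and below 0 in noRA_12h.

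Genes shared by naive and later pluripotent cells moved in both directions. Of 16 such genes, 7 were higher, 4 lower and 5 not past the threshold, with a median change of 0.25, beside 27.4% higher and 28.3% lower of all genes. Without RA 10 were higher and 1 lower than in ESC_0h, beside 22.0% and 20.4% of all genes. Against noRA_12h none of the 16 was higher in RA_12h and 7 were lower (median -0.41), beside 10.2% and 7.19%. Pou5f1 and Sox2 are described as the core factors of the list, chosen with their values seen. Pou5f1, which encodes OCT4, stood at 2438, 2281 and 2245 TPM in ESC_0h and 3099.9, 3001 and 3001 TPM in RA_12h (0.39, SE 0.072, adjusted p 0.000585). Utf1, a chromatin protein, stood at 50.2, 40.9 and 47.1 TPM and then 545, 568 and 527 TPM, a change of 3.54 (SE 0.10, adjusted p 1.53e-11). The let-7 regulator Lin28a changed by 1.41 (SE 0.07), and noRA_12h stood higher than ESC_0h too (1.62).

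Sox2, the partner of OCT4, stood at 208, 209 and 224 TPM in ESC_0h and 193, 183 and 196 TPM in RA_12h (-0.16, SE 0.061, adjusted p 0.0347), a call lost under 3 other settings and without ESC_0h replicate 3, RA_12h replicate 1 or RA_12h replicate 2. In noRA_12h Sox2 was above the start at 246, 262 and 271 TPM. Fgf4, the ligand that drives exit from pluripotency through ERK, stood at 129, 126 and 124 TPM, 118, 146 and 134 TPM and 72.4, 70.1 and 72.6 TPM in ESC_0h, noRA_12h and RA_12h. It was lower in RA_12h than in ESC_0h (-0.81, adjusted p 1.98e-06) and than in noRA_12h (-0.87, adjusted p 4.63e-06). The other 2 lower members were Tdgf1 (-0.17, SE 0.068), whose call was lost under 7 other settings besides leaving out single libraries, and Rif1. Rif1, a telomere and replication timing protein, stood at 11.9, 11.2 and 26.7 TPM in ESC_0h and 0.632, 1.01 and 0.94 TPM in RA_12h (-3.14, SE 0.74), or -2.11 after the GC and length correction.

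Formative genes had mostly risen. Of 22 tested, 16 were higher, 2 lower and 4 not past the threshold, and the median change was 1.61. Over all genes tested, the shares were 27.4% higher and 28.3% lower. Dnmt3a, a de novo DNA methyltransferase, stood at 8.93, 9.23 and 10.3 TPM in ESC_0h and 103, 102 and 102 TPM in RA_12h (3.30, SE 0.081, adjusted p 4.43e-12), beside 91.8, 102 and 95.4 TPM in noRA_12h. Enox1, a cell surface oxidase, stood at 0.719, 0.668 and 0.266 TPM, 60.5, 35.2 and 44.1 TPM and 14.2, 15.0 and 15.6 TPM in ESC_0h, noRA_12h and RA_12h, so RA_12h lay between. The lower members were Nkx1-2 and Lef1, both also WNT targets.

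Otx2, Pou3f1, Dnmt3b and Fgf5 are named after their values were seen, as standard marks of the formative state. Otx2 stood at 3.45, 4.23 and 3.60 TPM in ESC_0h, 94.3, 80.7 and 85.7 TPM in noRA_12h and 16.6, 19.9 and 16.3 TPM in RA_12h. RA_12h was above the start (1.96, SE 0.096, adjusted p 2.33e-09) and below noRA_12h (-2.24, adjusted p 5.49e-09). Pou3f1 showed the same order of groups at 0.68, 1.03 and 0.596, 6.25, 6.98 and 6.34 and 9.23, 13.0 and 12.1 TPM for ESC_0h, RA_12h and noRA_12h. Dnmt3b rose from 82.1, 77.5 and 79.8 TPM to 167, 174 and 166 TPM (1.07, SE 0.063), against 245, 274 and 259.5 TPM in noRA_12h. Fgf5, a later mark of the primed epiblast, was listed at 0 in ESC_0h, at 0, 0.15 and 0.111 TPM in RA_12h and at 0.482, 0.694 and 1.27 TPM in noRA_12h.

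Targets of ERK, which the MEK inhibitor holds down, had mostly risen. Of 20 tested of a list of 22, 12 were higher, 4 lower and 4 not past the threshold (median change 0.82). Among all genes tested, 27.4% were higher and 28.3% lower. Beside Dusp6, the nuclear protein gene Phlda1 stood at 3.37, 2.93 and 3.61 TPM in ESC_0h and 82.3, 87.8 and 87.6 TPM in RA_12h (4.34, SE 0.081, adjusted p 6.61e-13). The feedback inhibitor Spry4 stood at 2.06, 2.42 and 2.34 TPM and then 49.9, 52.2 and 51.4 TPM (3.99, SE 0.073). Myc stood at 5.64, 4.10 and 4.45 TPM in ESC_0h and 85.8, 94.6 and 91.3 TPM in RA_12h (4.01, SE 0.10), and 65.3, 72.8 and 69.7 TPM in noRA_12h. The 4 lower members were Ier3 (-2.53), Ccnd1 (-1.26), Fos (-0.64) and Dusp1 (-0.42), the Fos call being lost under quantile normalization (adjusted p 0.0891). Ccnd1, the cyclin of early G1, stood at 132, 126 and 129 TPM at the start, 94.0, 108 and 104 TPM in noRA_12h and 53.2, 55.3 and 51.8 TPM in RA_12h.

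Targets of LIF and STAT3 had mostly fallen. Of 16 tested, 3 were higher, 11 lower and 2 not past the threshold (median change -0.87). The shares of all genes tested were 27.4% higher and 28.3% lower. Socs3, the feedback inhibitor that STAT3 induces, stood at 167, 150.5 and 159 TPM in ESC_0h and 12.6, 13.3 and 12.9 TPM in RA_12h, with 7.07, 10.2 and 8.02 TPM in noRA_12h. Its change was -3.52 (SE 0.14, adjusted p 3.41e-10). Ier3, an early response gene, stood at 59.9, 56.9 and 56.2 TPM and then 10.7, 9.75 and 7.23 TPM (-2.53, SE 0.14). The 3 higher members were Gbx2, the early response factor Egr1 (2.43, SE 0.11) and the kinase Pim1. Pim1, named after its values were seen, stood at 132, 117 and 126 TPM in ESC_0h, 69.3, 88.5 and 80.1 TPM in noRA_12h and 204, 204 and 198 TPM in RA_12h. It was thus above the start with RA (0.69, adjusted p 2.23e-05) and below it without (-0.66, adjusted p 4.08e-05).

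WNT targets, which the GSK3 inhibitor holds up, had also mostly fallen. Of 19 tested of 20, 2 were higher, 13 lower and 4 not past the threshold (median change -0.99). Beside this, 27.4% of all genes tested were higher and 28.3% lower. Sp5, a direct WNT target factor, stood at 54.9, 42.1 and 50.5 TPM in ESC_0h and 0.0616, 0.233 and 0.119 TPM in RA_12h, and its change of -5.46 (SE 0.14, adjusted p 4.94e-12) was the lowest of the genes named. Axin2, the feedback scaffold of the pathway, stood at 61.6, 55.1 and 60.6 TPM and then 11.6, 11.8 and 11.7 TPM (-2.24, SE 0.094). The homeobox gene Nkx1-2 stood at 24.4, 23.8 and 23.5 TPM and then 1.38, 1.28 and 0.911 TPM (-3.51, SE 0.14). Lef1, a nuclear partner of beta-catenin, stood at 20.2, 16.5 and 17.9 TPM at the start, 10.2, 9.60 and 8.69 TPM in noRA_12h and 1.88, 1.75 and 2.43 TPM in RA_12h (-2.67 from the start, -1.80 from noRA_12h).

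Cdx1, T and Tlx2, WNT targets of the posterior embryo, are named after their values were seen, and each was higher in RA_12h than in noRA_12h. Cdx1, also a direct RA target, stood at 69.4, 63.3 and 60.8 TPM in ESC_0h, 2.96, 3.54 and 4.48 TPM in noRA_12h and 104, 107 and 99.1 TPM in RA_12h. Its change was 0.68 with RA (SE 0.12, adjusted p 0.000291) and -3.82 without RA (adjusted p 3.37e-11). T, the mesoderm factor Brachyury, stood at 9.23, 7.83 and 8.12 TPM, 0.454, 1.02 and 0.715 TPM and 3.30, 3.63 and 4.30 TPM in the same order, and Tlx2, a homeobox gene, at 29.7, 26.5 and 30.3, 1.53, 2.75 and 1.98 and 13.6, 12.5 and 10.3 TPM. Both were below the start in RA_12h (-0.99 and -1.19) and above noRA_12h (1.46 and 2.10). The other higher member was Notum, a secreted WNT inhibitor, at 41.7, 42.6 and 44.7 TPM in ESC_0h and 57.7, 59.5 and 54.7 TPM in RA_12h (0.41, SE 0.11).

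**Figure D3:**
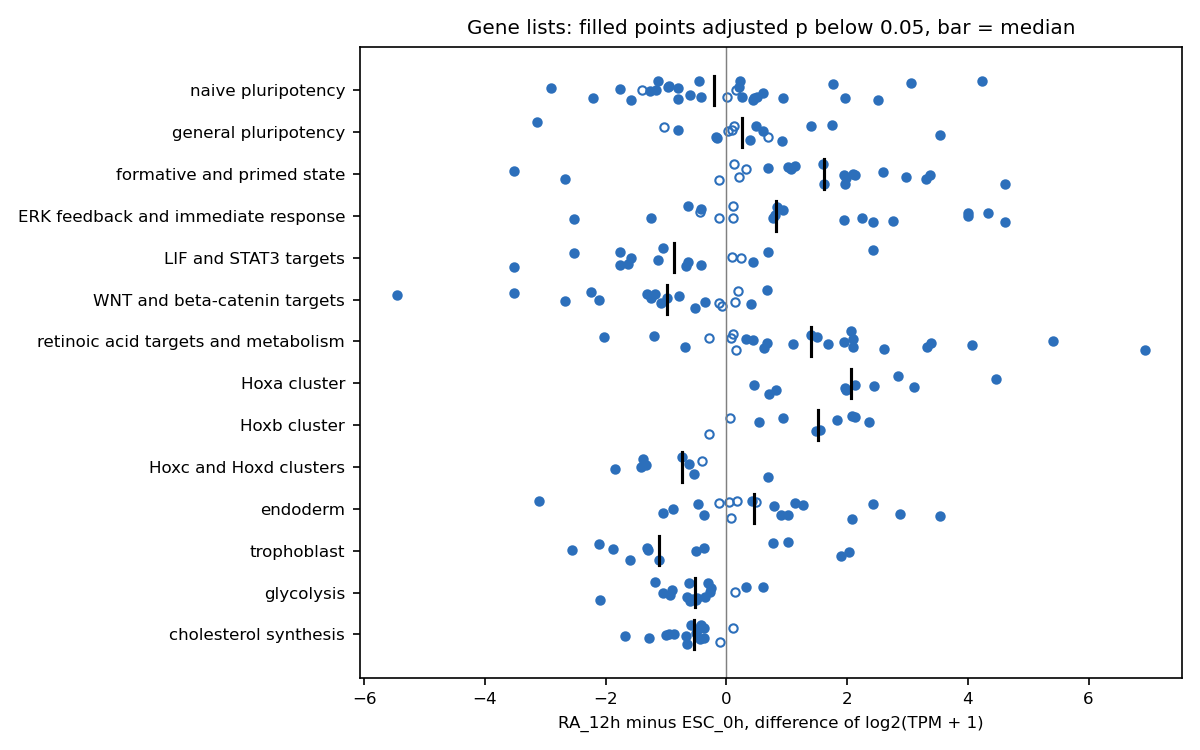
Change in log2(TPM + 1) from ESC_0h to RA_12h (x axis) of each tested gene of 14 gene lists (y axis), filled at an adjusted p below 0.05 and open otherwise, with a bar at the list's median. Hoxa, Hoxb, RA and formative genes lie mostly to the right of 0 and WNT, LIF, trophoblast, glycolysis and cholesterol genes mostly to the left. The point farthest right is Cyp26a1, whose fitted value rests on an ESC_0h group listed at 0.

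Genes of RA response and metabolism had mostly risen. Of 25 tested of 26, 18 were higher, 3 lower and 4 not past the threshold, with a median change of 1.40. Against noRA_12h 13 were higher and none lower. All genes tested gave 27.4% higher and 28.3% lower from the start, and 10.2% higher and 7.19% lower against noRA_12h. Among genes that clear or store the ligand, the reductase gene Dhrs3, named after its values were seen, stood at 3.20, 3.43 and 1.98 TPM in ESC_0h and 37.6, 39.1 and 34.7 TPM in RA_12h (3.32, SE 0.16). Stra6, the membrane receptor for retinol uptake, stood at 0.756, 0.411 and 0.734 TPM in ESC_0h, 0.735, 1.07 and 0.766 TPM in noRA_12h and 26.9, 26.8 and 25.4 TPM in RA_12h (4.07, SE 0.12, adjusted p 2.54e-11). Stra8, a factor of meiotic entry named for its induction by RA, stood at 6.05, 6.84 and 5.49 TPM, 7.69, 6.33 and 8.94 TPM and 292, 299.8 and 310.0 TPM in the same order. Its change of 5.41 (SE 0.11, adjusted p 8.47e-13) was the highest of any gene with a level above 0 in ESC_0h among those named.

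The receptors differed among themselves. Rarb, a known RA target whose promoter is shown above, stood at 0.105, 0 and 0.236 TPM in ESC_0h, 0.0615, 0.0499 and 0.0588 TPM in noRA_12h and 2.02, 2.20 and 2.25 TPM in RA_12h (1.51, SE 0.17, adjusted p 9.78e-06). Being below 1 TPM in ESC_0h, Rarb entered the test only through other groups and had little room to be called lower. Rarg stood at 30.4, 27.2 and 28.5 TPM in ESC_0h and 308, 317 and 309.7 TPM in RA_12h (3.40, SE 0.069), and at 258, 290.3 and 259.6 TPM in noRA_12h. Rara (0.076, SE 0.10) and the partner Rxra (0.11, SE 0.14) were not past the threshold, and are named after their values were seen. The 3 lower members were the transglutaminase Tgm2 and the RA-making dehydrogenases Aldh1a3 and Aldh1a2. Tgm2 stood at 36.9, 32.2 and 31.7 TPM in ESC_0h and 7.88, 7.84 and 6.69 TPM in RA_12h (-2.03, SE 0.14). Aldh1a3 changed by -1.21 (SE 0.17) and Aldh1a2 by -0.69 (SE 0.11).

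Hox genes, which pattern the body axis and answer to RA from the 3′ end of each cluster, differed by cluster. All 10 Hoxa genes tested were higher (Hoxa13 was not tested), beside 27.4% of all genes, with a median change of 2.06. Under the GC and length correction 9 were higher, without Hoxa11. Hox genes near 0 TPM in ESC_0h, such as Hoxa5, entered the test only through libraries where they were higher. They had little room to be called lower, so these counts are partly set by the filter. Hoxa5 stood at 0.13, 0.0746 and 0.289 TPM in ESC_0h, 0.0578, 0.2 and 0.134 TPM in noRA_12h and 23.9, 25.4 and 24.4 TPM in RA_12h (4.46, SE 0.12, adjusted p 1.01e-11). Hoxa4 and Hoxa3 changed by 3.10 and 2.44 (SE 0.12 and 0.15).

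Of 10 Hoxb genes tested, 8 were higher and none lower, with Hoxb9 (0.056) and Hoxb13 (-0.28) not past the threshold. Counts of Hox genes stand beside 27.4% higher and 28.3% lower of all genes tested. Members listed at 0 in ESC_0h could not be called lower, so the Hoxb count too is partly set by the filter. Hoxb5 was listed at 0 TPM in ESC_0h and noRA_12h and stood at 4.64, 4.51 and 3.40 TPM in RA_12h. Hoxb2 was listed at 0 in ESC_0h and stood at 3.14, 3.14 and 3.47 TPM in RA_12h. Hoxb4 stood at 0.252, 0.526 and 0.306 TPM at the start and 5.44, 4.50 and 4.87 TPM with RA (2.13, SE 0.12). Of 9 tested Hoxc and Hoxd genes, 7 were lower, all of them Hoxc genes, and Hoxd13 alone was higher (0.68). Hoxc12 stood at 8.14, 7.37 and 9.72 TPM in ESC_0h, 1.41, 1.01 and 1.77 TPM in noRA_12h and 1.68, 1.82 and 1.31 TPM in RA_12h (-1.85, SE 0.16). Strand is not stated for these values, so a Hox gene and an antisense transcript over it cannot be told apart.

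Among the 15 highest changes, several genes had no list of their own. Cd37, a tetraspanin, stood at 0.874, 1.23 and 2.50 TPM in ESC_0h, 11.5, 18.0 and 14.6 TPM in noRA_12h and 91.3, 92.4 and 98.4 TPM in RA_12h (5.28, SE 0.20). Porcn, the acyltransferase that lipidates WNT ligands, stood at 9.01, 5.18 and 6.56, 55.6, 63.1 and 59.4 and 216, 213 and 213 TPM (4.79, SE 0.14). Eras, a RAS protein of ESCs, stood at 2.55, 2.59 and 3.94 TPM in ESC_0h and 102, 107 and 101 TPM in RA_12h (4.71), and the galectin Lgals3 at 11.9, 10.7 and 11.2 and 319, 306 and 305 TPM (4.67). Cntfr, a receptor subunit of the LIF cytokine family, stood at 3.91, 3.01 and 3.31 TPM and then 92.6, 96.9 and 90.8 TPM (4.43, SE 0.11), with 24.9, 29.3 and 22.9 TPM in noRA_12h. The junction gene Cgnl1 (4.82), Fbp1 of gluconeogenesis (4.52), the galectin Lgals9 (4.45) and the activin subunit Inhbb (4.37) complete these with Cphx1 and Cphx3. Those homeobox genes are near copies of each other, so how reads were shared between them is uncertain. Outside this ranking, Csn3 and Pdyn were listed at 0 in ESC_0h and stood at 14.9, 14.6 and 11.0 TPM and at 5.69, 5.63 and 5.66 TPM in RA_12h.

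Among the 15 lowest changes, Trpm1, a cation channel, stood at 139, 157 and 139.5 TPM in ESC_0h, 3.99, 4.47 and 4.99 TPM in noRA_12h and 3.29, 3.15 and 3.79 TPM in RA_12h (-5.05, SE 0.14, adjusted p 1.16e-11). The connexin Gjb5 stood at 65.4, 60.5 and 65.3 TPM in ESC_0h and at 5.87, 4.63 and 4.22 TPM in RA_12h (-3.46, SE 0.14), and was also lower than in noRA_12h (-1.43). The troponin Tnni1 (-4.33), the peroxidase Gpx2 (-3.91), Ly6g6e (-4.84), Pglyrp1 (-3.76), Serpinb1a (-3.64) and the dynein Dnah8 (-3.58) were lower with an SE of at most 0.28. Tfrc, the transferrin receptor, stood at 27.9, 36.4 and 54.1 TPM in ESC_0h and 1.02, 0.847 and 1.66 TPM in RA_12h (-4.18, SE 0.63), or -3.45 after the GC and length correction. Plagl1 and the deubiquitinase Usp9x likewise had wide errors, at -3.76 (SE 0.47, corrected -3.50) and -3.69 (SE 0.74, corrected -2.54).

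**Figure D4:**
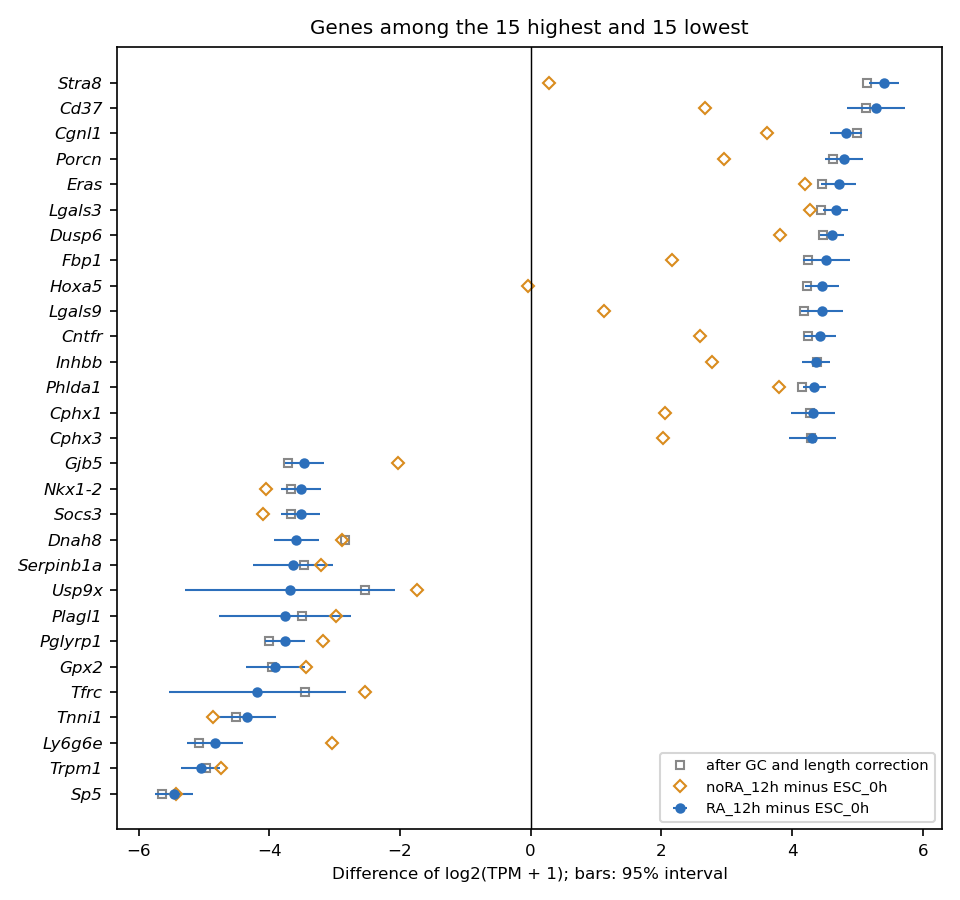
Change in log2(TPM + 1) from ESC_0h (x axis) of genes among the 15 highest and 15 lowest (y axis), as filled points for RA_12h with bars for the 95% interval, open squares for RA_12h after the GC and length correction, and open diamonds for noRA_12h. Stra8 reaches 5.41 with RA and 0.27 without, while Sp5 falls to -5.46 and -5.43.

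Genes of other lineages gave mixed pictures, beside 27.4% higher and 28.3% lower of all genes tested. Of 20 endoderm genes, 10 were higher, 7 of them by 2-fold or more, 5 lower and 5 not past the threshold (median change 0.45). Gata6, the factor that specifies primitive endoderm, stood at 0.806, 0.456 and 0.629 TPM in ESC_0h, 0.696, 0.888 and 0.944 TPM in noRA_12h and 16.9, 16.8 and 20.1 TPM in RA_12h (3.54, SE 0.14, adjusted p 3.61e-10). Of 5 other endoderm markers, chosen after their values were seen, Sox7 (1.27) and Dab2 (0.42) were higher, Gata4 (-0.47) was lower, and Sox17 (0.48, adjusted p 0.124) and Pdgfra (0.071, adjusted p 0.764) were not past the threshold. Their means in RA_12h were 1.58 TPM for Sox7, 0.55 TPM for Dab2, 0.996 TPM for Gata4, 0.618 TPM for Sox17 and 0.506 TPM for Pdgfra. The basement membrane collagen Col4a1 stood at 8.09, 7.83 and 8.22 TPM in ESC_0h and 67.2, 62.9 and 66.4 TPM in RA_12h (2.88, SE 0.074), with 67.7, 66.3 and 63.5 TPM in noRA_12h. The laminin chain Lama1 went the other way, from 77.5, 65.6 and 74.6 TPM to 7.07, 7.61 and 8.05 TPM (-3.10, SE 0.1). Amn, an endocytic receptor subunit of visceral endoderm, changed by 2.43 (SE 0.16).

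Of 12 primitive streak and mesoderm genes tested of 20, 8 were higher, 3 lower and 1 not past the threshold. Wnt8a stood at 0.142, 0.214 and 0.223 TPM in ESC_0h and 4.29, 4.79 and 3.66 TPM in RA_12h (2.13, SE 0.17), and the factor Hand1 at 0.193, 0.325 and 0.216 TPM and then 3.89, 4.26 and 2.84 TPM (1.90, SE 0.19). Both were below 1 TPM in ESC_0h and entered the test only through other groups, with little room to be called lower. The 3 lower were T, Cdx2 and Gsc. Of 13 trophoblast genes tested, 4 were higher and 9 lower, with Gata3 at 2.03 (SE 0.14) and Gata2 at -2.55 (SE 0.18). Of 5 neural genes tested of 15, Pax6 was higher (0.159, 0.047 and 0 TPM in ESC_0h, 0.578, 0.613 and 0.801 TPM in RA_12h) and Nes lower (-0.48), the latter not under quantile normalization (adjusted p 0.193). Of 14 germline genes, 4 were higher and 5 lower. For this list and those of streak, trophoblast and neural genes, the shares over all genes were 27.4% higher and 28.3% lower. Mael, a piRNA pathway protein, changed by 2.36 (SE 0.087), and the meiotic genes Sycp1 (-1.37, SE 0.36) and Smc1b (-1.29, SE 0.46, corrected -0.64) were lower. The Sycp1 call was lost after the GC and length correction (-0.37, adjusted p 0.0621), and the Smc1b call when any of 5 single libraries was left out.

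Markers of feeder cells and of 2-cell-like cells were low. Of 12 fibroblast and feeder genes, 7 were tested, 1 was higher, 1 lower and 5 not past the threshold. All genes tested gave 27.4% higher and 28.3% lower. The sum over the list was 15.3 to 17.8 TPM in ESC_0h and 14.1 to 17.9 TPM in RA_12h, and Lum and Fap were at 0 in all 6 libraries. None of 11 genes of the 2-cell-like state reached the level to be tested, and Tcstv1 and Zfp352 were at 0 in all 6 libraries.

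Signalling genes of the nodal, BMP and FGF pathways were counted beside the 27.4% of all genes that were higher and the 28.3% that were lower. Of 9 genes of the nodal pathway tested, 3 were higher: Nodal itself (49.1, 40.0 and 46.3 TPM in ESC_0h, 102, 101 and 101 TPM in RA_12h) and its inhibitors Lefty1 (2.58, SE 0.14) and Lefty2 (1.48, SE 0.077). Tdgf1, the co-receptor, was the 1 lower member, with the unstable call given above. Of 10 BMP and Id genes, 6 were higher and 2 lower. Id1, which blocks basic helix-loop-helix factors, stood at 11.6, 8.35 and 11.0 TPM in ESC_0h, 45.9, 61.2 and 47.6 TPM in noRA_12h and 106, 104 and 97.8 TPM in RA_12h (3.21, SE 0.12), and Id3 changed by 3.25 (SE 0.12). Id4 was lower (-1.29, SE 0.15). Of 11 FGF ligands and receptors, 4 were higher, among them the binding protein Fgfbp1 (1.76) and the receptor Fgfr4 (1.15), and Fgf3 (-1.73) and Fgf4 were lower.

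Of 10 DNA methylation genes tested, 5 were higher and 3 lower, beside 27.4% and 28.3% of all genes. The higher members were Dnmt3a, Dnmt3b, Dnmt3l, Zfp57 and Tdg (0.26, SE 0.092), the thymine DNA glycosylase, and Tet2 and Tet3 were not past the threshold. Dnmt3l, the cofactor of the de novo enzymes, stood at 168, 153 and 156 TPM in ESC_0h, 1158, 1354 and 1221 TPM in noRA_12h and 729.6, 731 and 705 TPM in RA_12h (2.17, SE 0.072, adjusted p 6.4e-11). The maintenance genes Dnmt1 (-0.35, SE 0.059) and Uhrf1 (-0.41, SE 0.079) were lower, and are named with the dioxygenase Tet1 as the lower members. Tet1 stood at 24.3, 30.4 and 42.5 TPM in ESC_0h and 5.87, 5.05 and 5.74 TPM in RA_12h (-2.32, SE 0.60), or -1.34 after the GC and length correction. Of 11 cadherin and epithelial-mesenchymal genes, 4 were higher and 4 lower, beside the same shares of all genes. Higher genes numbered 3 when any single library was left out, with median-of-ratios scaling and under the GC and length correction. They numbered 5 under quantile normalization. Fibronectin Fn1 stood at 642, 552 and 636 TPM and then 194, 215 and 212 TPM (-1.55, SE 0.09), Zeb1 changed by -1.25 (SE 0.37, corrected -0.93), and Grhl2 by 1.03 (SE 0.11) and Cdh3 by 0.87 (SE 0.11).

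Cell cycle genes moved in both directions, with 6 of 15 higher and 7 lower, beside 27.4% and 28.3% of all genes. The cyclin Ccnd2 stood at 0.257, 0.662 and 0.133 TPM in ESC_0h and 8.55, 9.91 and 10.6 TPM in RA_12h (3.00, SE 0.15), against the fall of Ccnd1 given above. The inhibitor Cdkn1a, a p53 target, stood at 266, 242 and 256 TPM and then 64.1, 65.8 and 61.4 TPM (-1.98, SE 0.069, adjusted p 1.01e-10), with 53.6, 58.2 and 52.3 TPM in noRA_12h. Ccne2 changed by -1.92 (SE 0.50), or -1.10 after the GC and length correction. Of 16 genes of p53 and ATF4 stress responses, 2 were higher and 12 lower (median change -0.82), beside the same shares of all genes. Ddit4, an inhibitor of mTORC1, stood at 336, 303 and 322 TPM and then 71.8, 70.3 and 70.1 TPM (-2.16, SE 0.074), and Ddit3, the factor CHOP, at 69.1, 75.3 and 66.5 and then 16.9, 20.6 and 19.6 TPM (-1.83, SE 0.084). Trp53inp1 changed by -2.66 (SE 0.72, corrected -1.81).

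Most genes of the glycolysis and cholesterol lists stood lower after 12 h. Of 18 glycolysis genes, 2 were higher and 15 lower (median change -0.53), beside 27.4% and 28.3% of all genes. Hk1, a hexokinase, stood at 200.3, 179 and 184 TPM in ESC_0h and 44.5, 42.2 and 42.6 TPM in RA_12h (-2.09, SE 0.078, adjusted p 2.1e-10). Aldoa and Tpi1, enzymes of the middle of the pathway, changed by -1.06 (SE 0.076) and -1.18 (SE 0.079), and Hk2 by -0.94 (SE 0.056). The 2 higher were Pfkm (0.33) and the pyruvate dehydrogenase kinase Pdk1 (0.61). Of 16 genes of cholesterol synthesis and its control, none was higher and 14 were lower (median change -0.54), beside the same shares. With each library left out in turn, 11 to 14 were lower. Dhcr7, which makes the last step to cholesterol, stood at 98.5, 71.3 and 73.4 TPM and then 30.5, 32.5 and 34.2 TPM (-1.28, SE 0.16), and the sterol sensor partner Insig1 changed by -1.01 (SE 0.078). Idi1 (-1.68, SE 0.55, corrected -1.30) and Sc5d (-0.96, SE 0.30, corrected -0.47) lost their calls when certain single libraries were left out, for Idi1 ESC_0h replicate 3 or RA_12h replicate 2 or 3 (adjusted p up to 0.0585), for Sc5d replicate 2 of either group (up to 0.0562).

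The genes lower by 2-fold or more leaned to low GC content and long transcripts. Their median GC content was 44.1%, against 50.3% of all genes tested, and 632 of the 1608 had an SE over 0.4, against 6 of the 968 higher by 2-fold or more. When genes were split into 5 equal bins by GC content, the lowest bin (31.0% to 44.3%) held 320 higher and 1087 lower genes, with a median change of -0.48. The median was -0.052, 0.055, 0.070 and 0.043 in the other bins in rising order of GC. After the GC and length correction the lowest bin had a median of 0.044, and 1058 genes were higher and 1135 lower by 2-fold or more. The correction takes out a trend with GC content by design, so the small bin median is not a finding. It would also take out a change of the cells that follows GC content. Of the genes called before it, 3271 of 3824 were higher and 3430 of 3943 lower under the correction too. Smc3, a cohesin subunit looked up after its values were seen, shows the spread: it stood at 19.5, 20.5 and 39.6 TPM in ESC_0h, 27.3, 2.93 and 7.73 TPM in noRA_12h and 2.12, 2.35 and 3.01 TPM in RA_12h (-2.91, SE 0.71, corrected -2.38). Hprt, a housekeeping gene, was listed at 0, 0 and 0.315 TPM in ESC_0h. Whether the cells lacked this transcript or the quantification missed it was not tested. For other genes, whether a listed 0 means a silent gene was not tested either and is not known.

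**Figure D5:**
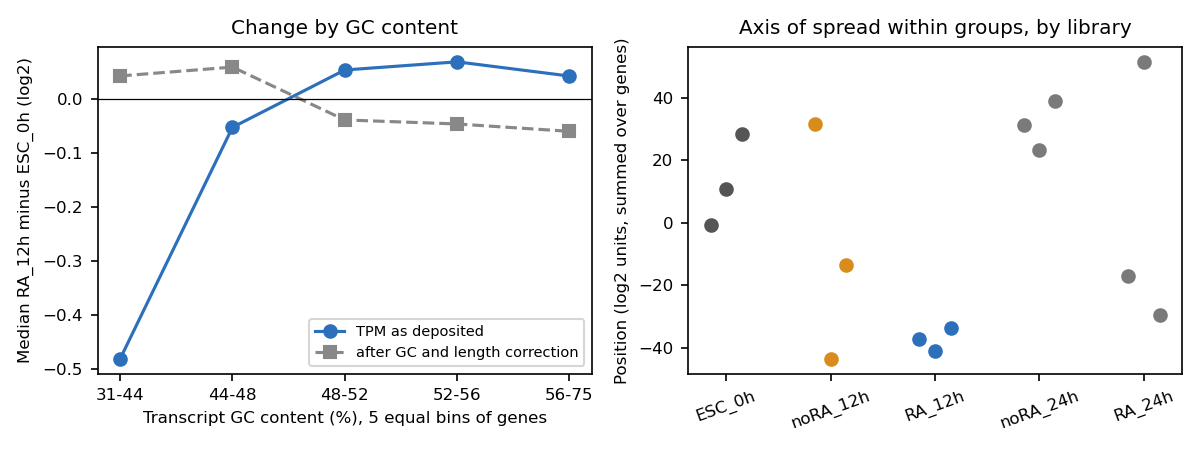
Left, the median change in log2(TPM + 1) from ESC_0h to RA_12h (y axis) by bin of transcript GC content, 5 bins of equal size (x axis), as deposited (circles) and after the GC and length correction (squares). Right, the position of each of 15 libraries on the within-group axis (y axis) by group (x axis). The lowest bin has a median of -0.48 as deposited and 0.044 after correction, which removes a trend with GC content by design. RA_12h libraries sit at -41.1 to -33.8, apart from ESC_0h at -0.812 to 28.5.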

How the data were processed

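Per the labels, polyadenylated RNA was sequenced as paired ends. HISAT2, StringTie and mm10 are named in the submitters' processing notes, and the sources used here give no versions of the tools. The deposited tables hold coverage (signal), FPKM and TPM per gene, per the file headers, and levels here are the TPM scaled by the authors. Coverage over FPKM gave the depth in aligned gigabases. No counts were used.

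TPM of rows sharing a gene ID was summed, genes of 1 TPM or more in 3 or more of the 15 time course libraries were tested on log2(TPM + 1), and all 15 libraries entered 1 model in limma 3.58.1 (R 4.3.3, eBayes with trend). A gene below 1 TPM in every ESC_0h library was thus tested only because of its level in other groups, which leaves little room for a lower call. List counts with such members are partly set by this filter. P-values were adjusted by Benjamini-Hochberg over 13948 genes, with calls below 0.05. GC content and length came from GENCODE M21 (99.92% of genes), and the correction fitted each library with natural splines (4 degrees of freedom). Promoters came from RefSeq. The comparison and all lists were chosen with earlier results of these data known. Named were Cyp26a1, Dusp6, Nanog, the naive list, the 15 highest and 15 lowest genes whose groups did not overlap (predicted gene models left out) and up to 4 members per list with the largest change; where every library of one group was at 0, the 5 highest levels were taken instead. Others are said to be chosen with values seen. Some of these genes are not reported here. The fit was also run on simulated data with independent noise for each gene. Such data lack the shared axis of these libraries, so that run cannot show how the axis affects the calls. Other settings tried are given in the closing section. Figures used Python 3.11.15 and matplotlib 3.10.9. The Cyp26a1 knockout set was not used here.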

Additional observations from a re-analysis of the deposited data

How the results depend on the processing

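Of the counts of genes, naive classes and lists under all settings, 901 stayed within 1.5 times the reported value and 68 did not. Most of the latter are list counts of 5 or fewer, and except where fewer genes were tested the cause was not tested. Genes higher by 2-fold or more numbered 1494 with a pseudocount of 0.1 and 621 with a mean of at least 5 TPM. Genes lower by 2-fold or more numbered 932 with that filter and 1071 from FPKM. Naive genes not past the threshold, with an interval inside 2-fold, numbered 4 under quantile normalization, 1 from FPKM and 1 with only the compared groups. Called genes with such an interval are not in this class. The model of only the compared groups placed Tet2 and left 0 undetermined.

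A mean of at least 5 TPM leaves fewer genes in each list. It gave 1 lower RA gene, 5 higher Hoxa and 5 higher Hoxb genes, 0 higher and 0 lower Hoxc and Hoxd genes, 6 higher and 2 lower endoderm genes, and 4 higher and 0 lower streak genes. It gave 2 higher and 5 lower trophoblast genes, 0 higher and 0 lower neural genes, 2 lower germline genes, 0 higher and 0 lower fibroblast genes, 2 lower nodal genes, 1 lower FGF gene and 2 lower cadherin and epithelial-mesenchymal genes. Lower general pluripotency genes numbered 2 with median-of-ratios scaling, with FPKM and without a variance trend. Quantile normalization gave 3 lower endoderm and 0 lower neural genes, and the model of the compared groups 2 higher neural and 3 lower nodal genes. The nodal pathway had 0 lower genes without the filter, with median-of-ratios scaling, with FPKM, without the trend and with the replicate block. The p53 and ATF4 list had 1 higher gene without the filter, without the trend and with the block. The GC and length correction, alone and with the replicate block, gave 1 lower Hoxb gene, 2 higher fibroblast genes and 2 lower nodal genes.

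Leaving out each library in turn gave 3408 to 3501 genes higher and 3011 to 3593 lower, 966 to 993 higher and 1182 to 1635 lower by 2-fold or more, the lowest of these without ESC_0h replicate 3. Ranges of list counts included 2 to 4 lower general pluripotency genes, 3 to 5 lower endoderm genes, 3 to 5 lower germline genes, 0 to 1 higher fibroblast genes, 0 to 1 lower nodal genes, 1 to 2 higher p53 and ATF4 genes and 1 to 2 higher glycolysis genes. They also included 11 to 14 lower cholesterol genes, 4 to 5 higher DNA methylation genes and 5 to 6 higher BMP and Id genes. Higher cadherin and epithelial-mesenchymal genes numbered 3 each time. Without ESC_0h replicate 3 there were 2 lower general pluripotency, 3 lower endoderm, 3 lower germline and 1 higher glycolysis genes.

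Whether replicate numbers pair the samples is not known, and the model did not pair them. The deviations of same-numbered ESC_0h and RA_12h libraries correlated at r = 0.0286, 0.0487 and 0.137 across genes. Libraries of unlike number gave r from -0.131 to 0.0904. With so few libraries per group, these values cannot settle pairing. With the replicate block 3635 genes were higher and 3613 lower.

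For single genes, 5750 values stayed on their side of the threshold, 138 lost their call, 72 gained one, and 2 turned direction, both of Cdkn1b, a cyclin-dependent kinase inhibitor. Its change of -0.21 became 0.2314 (limma, adjusted p 0.378) under the GC and length correction and 0.2314 (adjusted p 0.426) with the replicate block added. TPM hold no counts, so counting error at low levels is not known.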

Other observations

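Further genes of the lists, chosen after their values were seen, add to the description of RA_12h. Among carriers of retinoids, the RA-binding protein gene Crabp2 stood at 3.32, 3.88 and 3.52 TPM in ESC_0h and at 18.1, 18.2 and 18.3 TPM in RA_12h (change 2.07, limma SE 0.11). In noRA_12h Crabp2 was also above the start (1.87, adjusted p 1.43e-08). Cyp26b1, a second RA hydroxylase, stood at 0, 0.0844 and 0.0817 TPM at the start and 3.26, 3.45 and 3.88 TPM with RA. Meis1, a homeobox partner of HOX proteins, stood at 0.39, 0.234 and 0.616 TPM in ESC_0h, 1.89, 2.25 and 2.44 TPM in noRA_12h and 7.04, 7.60 and 8.07 TPM in RA_12h, in that order with no overlap.

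Tcf15, a basic helix-loop-helix factor of the early formative state, stood at 23.7, 20.8 and 23.9 TPM in ESC_0h, 76.8, 115 and 87.7 TPM in noRA_12h and 144, 146 and 137 TPM in RA_12h (2.59 from the start, 0.63 from noRA_12h, adjusted p 0.00539). It was thus highest with RA, whereas Otx2 and Pou3f1 were highest without it. Etv4, an ETS factor downstream of FGF and ERK, stood at 80.5, 67.5 and 67.3, 182, 192 and 174 and 283, 278 and 272 TPM in the same order of groups. Mycn stood at 49.4, 49.6 and 50.6 TPM at the start, 70.5, 78.7 and 73.9 TPM in noRA_12h and 21.1, 21.4 and 25.3 TPM in RA_12h (-1.11, SE 0.087), while Myc was higher in both groups after 12 h. Foxd3, a forkhead factor of pluripotent cells, stood at 14.9, 12.5 and 14.3, 42.8, 54.1 and 47.3 and 26.4, 28.7 and 26.4 TPM in that order of groups, and its mean at 24 h with RA was 3.73 TPM. Asns, the asparagine synthetase that ATF4 controls, stood at 1465, 1482 and 1409 TPM in ESC_0h and 614, 607 and 584 TPM in RA_12h (-1.27, SE 0.047).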
